A study of Mus musculus with 2 samples.

Results

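The spectrin-ankyrin membrane skeleton is the protein mesh under the red cell membrane, and 9 of its genes were examined here: Sptb, Ank1, Epb41, Epb42, Add1, Add2, Dmtn, Tmod1 and Mpp1. They were chosen by symbol and not by a rule on their measured values, though with earlier results of these data known. All 9 were found among the 43346 Ensembl genes of the deposited tables, with 77 annotated transcripts between them. The data are paired-end sequences of poly(A) RNA from mouse erythroblasts, the cells that still have a nucleus and mature into red cells. The cells were Ter119+ primary cells from the livers of pooled male and female embryos at day 14.5, with no treatment, strain or genetic change named in the labels. There is 1 group of 2 libraries, biological replicates 1 and 2, called library 1 and library 2 below. Both carry the same donor entry but separate biosample entries. The p-values between them cover counting error only and do not measure the spread between samples, part of which can be technical.

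In the red cell, spectrin is a long flexible rod built from paired chains, and the rods are tied into a network at short actin filaments. Ankyrin fastens beta spectrin to band 3, the anion exchanger of the membrane, with the help of protein 4.2. At the actin junctions protein 4.1, adducin, dematin, tropomodulin and p55 hold the filaments, cap their ends and link them to glycophorin C. Inherited defects of spectrin, ankyrin, protein 4.1, protein 4.2 or band 3 are known causes of spherocytic or elliptic red cells with haemolytic anaemia.

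Library 1 held 51190555 expected counts, the quantifier's estimate of the fragments that belong to each gene, and library 2 held 44256287. Levels are given in TPM, a relative abundance that corrects for transcript length and has an equal sum in both libraries. The 11 annotated globin genes took 86.0% of all TPM in library 1 and 84.4% in library 2, so every other gene shares the small remainder. All 9 listed erythroid marker genes were above 1 TPM in both libraries. Of 23 markers of other lineages, 8 were above 1 TPM in both. The summed level of the 23 was 33.1 and 43.2 TPM. The highest were the megakaryocyte gene Gp9 at 8.32 and 10.3 TPM, the hepatic gene Apoa1 at 6.01 and 8.05 and the macrophage gene C1qc at 4.07 and 7.02. Gp9 and Apoa1 were thus near the lowest skeleton gene, Mpp1, at 7.60 and 8.35 TPM. The T-cell gene Cd3e had 0 counts in both libraries, at most 3 counts in each. Fewer cells of a type and less RNA per cell cannot be told apart in such bulk samples. All 9 skeleton genes had whole-number counts in both libraries, to within 0.01, so no sharing of fragments with other genes shows in them.

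Some sequences are shown first, because several of these genes are known for coding exons that are used or skipped as red cells mature, and the transcript results below turn on them. The capitals mark the alternative exon and the lower-case letters are the 12 bases on either side in the spliced transcript that contains it, from the GENCODE M21 transcripts of mm10. The 63-base exon of Epb41 lies on the minus strand at chr4:131962924-131962986, in the region known to encode part of the spectrin-actin binding domain of protein 4.1. The 57-base exon of Epb41 lies on the minus strand at chr4:131964131-131964187, just before the 63-base exon in the transcript. The 102-base exon of Epb41 lies nearer the 3′ end, on the minus strand at chr4:131929694-131929795. The 24-base exon of Ank1 lies on the plus strand at chr8:23110347-23110370. All 4 are coding exons with a length that is a multiple of 3.
Epb41 63-base exon: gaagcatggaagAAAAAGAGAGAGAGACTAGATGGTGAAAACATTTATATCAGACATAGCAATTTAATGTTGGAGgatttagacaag
Epb41 57-base exon: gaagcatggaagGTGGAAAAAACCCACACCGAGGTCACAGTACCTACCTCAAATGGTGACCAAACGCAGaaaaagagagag
Epb41 102-base exon: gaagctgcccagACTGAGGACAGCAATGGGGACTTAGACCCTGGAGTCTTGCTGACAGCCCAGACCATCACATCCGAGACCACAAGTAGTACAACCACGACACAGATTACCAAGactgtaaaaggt
Ank1 24-base exon: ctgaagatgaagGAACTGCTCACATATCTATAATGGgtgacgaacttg
The 63-base and the 57-base exons of Epb41 follow the same 12 bases, and the 57-base exon runs on into the first 12 bases of the 63-base exon. A transcript can therefore hold both in a row.

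The 9 genes spanned a wide range of levels, from beta spectrin at the top to the scaffold protein p55 at the bottom, and their order was the same in both libraries apart from 2 pairs of near-equal neighbours. Together they took 787 and 870 TPM in the 2 libraries. That is 0.0787% and 0.0870% of all TPM, or 0.563% and 0.558% of the TPM outside the globin genes. The shares outside the globins lay closer together than the shares of all TPM.

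Sptb, the beta chain of erythroid spectrin (chromosome 12, 76580488 to 76710547, minus strand), was the highest of the set. Its levels were 208 TPM in library 1 and 218 in library 2, a mean of 213 ± 6.87 (SD, n = 2). That mean placed it at rank 116 of all genes and rank 105 of the protein-coding genes.

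Ank1, erythroid ankyrin, which links beta spectrin to band 3 (chromosome 8, 22974844 to 23150497, plus strand), was measured at 104.6 TPM in library 1 and at 136 in library 2. The mean of 120 ± 22.3 (SD, n = 2) has the widest spread of the set, and library 2 is the higher one. Sptb exceeded Ank1 by 1.99 times in library 1 and 1.60 times in library 2. Epb42, protein 4.2, which stabilises ankyrin on band 3 (chromosome 2, 121017891 to 121037072, minus strand), was far below ankyrin. Its level was 10.8 and 10.6 TPM in the 2 libraries, a mean of 10.7 ± 0.120 (SD, n = 2). In TPM ankyrin exceeded protein 4.2, which works at the same membrane site, by 9.71 and 12.8 times in the 2 libraries. By counts per kilobase of the longest annotated transcript it was 7.22 and 8.40 times. The amount thus depends on the transcript model, and part of the Ank1 TPM lay in short 3′ models described below. The RNA for band 3 itself, Slc4a1, stood above every gene of the set at 589 and 762 TPM.

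At the actin junction the levels ranged from Dmtn, the highest of these genes, down to Mpp1, the lowest. Dmtn, dematin, which bundles actin and binds spectrin (chromosome 14, 70601263 to 70636048, minus strand), was second in the set at 181 and 194 TPM, a mean of 187 ± 9.51 (SD, n = 2). Epb41, protein 4.1, which strengthens the spectrin-actin contact (chromosome 4, 131923413 to 132075321, minus strand), stood at 107 and 118 TPM, a mean of 112 ± 7.52 (SD, n = 2). Ank1 and Epb41 overlapped across the libraries and did not differ beyond their spread.

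Add1, the alpha chain of adducin, which caps actin and recruits spectrin (chromosome 5, 34573664 to 34632308, plus strand), was almost the same in both libraries at 99.7 and 99.5 TPM, a mean of 99.6 ± 0.148 (SD, n = 2). Add2, the beta chain with which Add1 pairs (chromosome 6, 86028681 to 86124409, plus strand), was lower at 35.1 and 42.6 TPM, a mean of 38.8 ± 5.30 (SD, n = 2). The Add1 level was 2.84 times that of Add2 in library 1 and 2.34 times in library 2. By counts per kilobase of the longest annotated transcript it was 1.64 and 1.37 times, so Add1 was the higher chain by both measures but by an amount that depends on the transcript model. The third adducin gene, Add3, was at 0.11 and 0.08 TPM, so Add2 made 99.7% and 99.8% of the summed Add2 and Add3 level.

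Tmod1, tropomodulin, which caps the slow-growing end of the short actin filaments (chromosome 4, 46038935 to 46116032, plus strand), stood at 33.6 and 42.7 TPM, a mean of 38.1 ± 6.46 (SD, n = 2). In TPM its values overlapped those of Add2, and the 2 genes did not differ beyond their spread. By counts per kilobase of the longest annotated transcript they were apart, at 41.8 and 45.4 for Tmod1 against 64.0 and 70.1 for Add2, as CPM (the gene's share of all counts) per kilobase. Exons of Tstd2 on the opposite strand cover 32.6% of the annotated exon bases of Tmod1. Tstd2 was at 0.34 and 0.20 TPM, and whether the counting used strand is not given in the sources used here. Mpp1, the p55 scaffold that joins protein 4.1 to glycophorin C (chromosome X, 75109733 to 75131016, minus strand), was the lowest at 7.60 and 8.35 TPM, a mean of 7.98 ± 0.530 (SD, n = 2). It rested on 912 and 668 counts. In TPM Sptb exceeded Mpp1 by 27.4 and 26.1 times. By counts per kilobase of the longest annotated transcript it was 48.9 and 54.7 times, so this amount too depends on the transcript model.

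**Figure D1:**
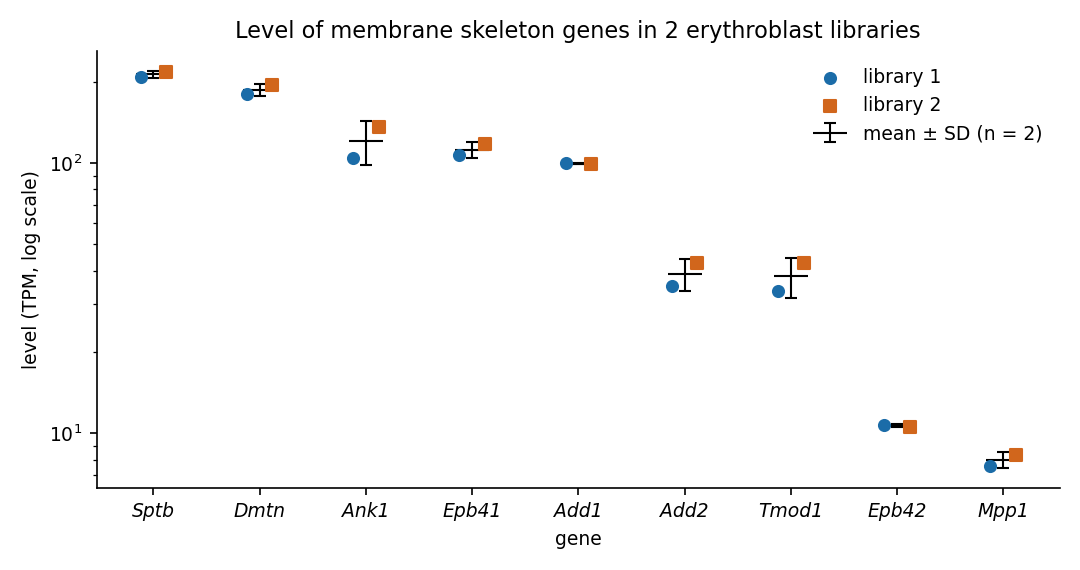
Level of the 9 membrane skeleton genes in TPM on a log axis, with library 1 as circles, library 2 as squares and the mean ± SD of the 2 libraries as black bars. Sptb leads at 208 and 218 TPM, and Mpp1 is lowest of the 9 at 7.60 and 8.35 TPM.

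The plot of levels by gene shows 3 steps. Sptb, Dmtn, Ank1, Epb41 and Add1 were at 99.5 TPM or more in both libraries, Add2 and Tmod1 between 33.6 and 42.7 TPM, and Epb42 and Mpp1 between 7.60 and 10.8 TPM. Neighbours in the order that did not overlap were Sptb and Dmtn, Dmtn and Ank1, Epb41 and Add1, Add1 and Add2, Tmod1 and Epb42, and Epb42 and Mpp1. No test was run on these differences between genes, which are given as descriptions. Counting only the TPM of transcripts of 1000 bases or more, Ank1 was at 88.2 and 113 TPM, below Epb41 at 99.95 TPM in library 1 and above it at 111 TPM in library 2, so the pair still overlapped. Tmod1 was at 21.9 and 26.2 TPM by this measure, below Add2 at 35.1 and 42.6. By the same measure Mpp1 was at 3.86 and 3.67 TPM.

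Of the set, Sptb, Ank1, Epb41, Dmtn and Tmod1 were nearly the only expressed genes of their families. Relatives from a list of 38 genes were compared, of which 2 were above 1 TPM in both libraries and 6 had 0 counts in both. Sptb made 99.98% and 99.97% of the TPM of the beta spectrins, with Sptbn1, the widespread non-erythroid beta chain, at 0.02 and 0.04 TPM. Ank1 made 99.7% and 99.9% of ankyrin TPM, with Ank2 at 0.33 and 0.10 TPM and Ank3 at 0.03 and 0. Epb41 made 99.3% of the protein 4.1 family in both libraries, and its highest relative, Epb41l1, was at 0.48 and 0.57 TPM. Dmtn made 99.99% and 99.97% of its group, which held the villin relatives Avil, Vil1 and Vill and the LIM-domain relative Ablim1. Tmod1 made 98.8% and 98.5% of the tropomodulin and leiomodin TPM, with the widely expressed Tmod3 next at 0.42 and 0.64 TPM.

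Add1 shared its family with a second expressed gene, Add2, and made 73.9% and 70.0% of adducin TPM. The 2 lowest genes of the set, Mpp1 and Epb42, shared theirs with genes outside the set. Mpp1 made only 25.6% and 22.8% of its family's TPM, because Mpp2, a relative of the same scaffold family, stood at 21.6 and 27.9 TPM, above Mpp1 in both libraries. Mpp2 had 7812 and 8350 counts, all whole numbers. Epb42, which descends from the transglutaminases but has lost the enzyme activity, made 56.0% and 45.1% of the summed TPM with its relatives. The rest was nearly all Tgm2, the tissue transglutaminase, at 8.40 and 12.8 TPM, below Epb42 in library 1 and above it in library 2.

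**Figure D2:**
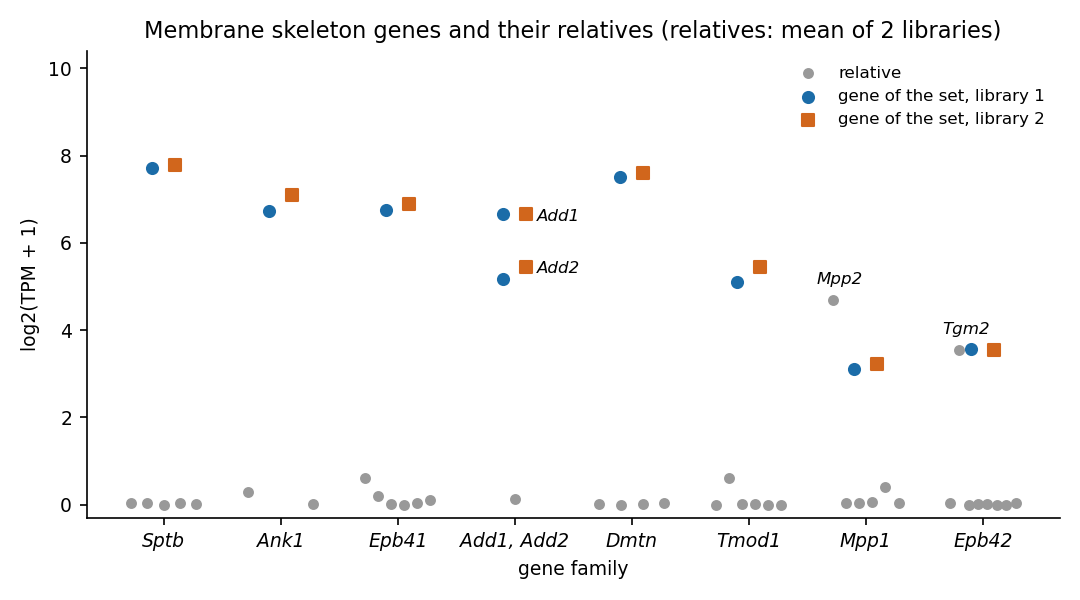
Level of each skeleton gene in library 1 (circles) and library 2 (squares) beside the mean level of its listed relatives (grey), as log2(TPM + 1). All grey points lie near 0 except Mpp2 at a mean of 24.7 TPM and Tgm2 at 10.6 TPM.

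The partners of the skeleton were read from 2 lists. All 12 listed membrane anchors, the proteins of the bilayer to which the skeleton is fastened or that travel with them, were above 1 TPM in both libraries. The highest after Slc4a1 were the glucose transporter Slc2a1 at 253 and 236 TPM and the adhesion protein Icam4 at 74.3 and 117 TPM, and the lowest was Xk at 2.31 and 2.01 TPM. Of the 9 actin, tropomyosin and capping protein genes, 5 were above 1 TPM in both libraries. Actb was highest at 313 and 473 TPM. Of the tropomyosins, which wrap the short filaments, Tpm1 stood at 13.8 and 18.8 TPM and Tpm3 at 13.0 and 12.9 TPM, while Tpm2 was the lowest of the list at 0.01 and 0.15 TPM. The counts of Tpm3 and Actg1 were not whole, so part of their fragments was divided with other genes.

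Between the 2 libraries the set differed little. The libraries were compared gene by gene on rounded counts with the exact conditional binomial test (two-sided), scaled by edgeR's trimmed mean of M values and adjusted by Benjamini-Hochberg over 10955 genes. This test compares these libraries and not conditions, and it covers counting error only. Of the 23 markers of other lineages this test called 5 higher and 4 lower in library 2, and their part in the differences was not tested. At an adjusted p under 0.05 it called 8 of the 9 genes, against 44.9% of all genes tested and 58.2% of the 5256 genes with 100 or more counts in each library. Higher in library 2 were 2 of the 9, against 22.9% of all genes, and lower were 6, against 22.0%. The ratios were small: 8 of the 9 had an absolute log2 ratio under 0.21, the median of those 5256 genes. The median log2 ratio of library 2 to library 1 was -0.05 over the 9 genes and -0.0012 over all genes tested.

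Mpp1 had the largest ratio of the set, at 17.9 scaled CPM (CPM adjusted for the scaling factors) in library 1 and 15.0 in library 2, a log2 ratio of -0.24 (exact binomial test, Benjamini-Hochberg adjusted p = 0.0023). Epb42 followed at 72.1 and 62.5 scaled CPM, a log2 ratio of -0.20 (adjusted p = 9.2e-08, same test). Add1 was at 479 and 434 scaled CPM, a log2 ratio of -0.14 (adjusted p = 1.1e-23). These 3 genes were lower in library 2. Sptb, Dmtn and Epb41 were lower by less, with log2 ratios of -0.09, -0.05 and -0.03, and the adjusted p of Epb41 was 0.021 by the same test. The last of these was not called when total counts replaced the scaled library sizes (adjusted p = 0.17).

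Add2 and Tmod1 were higher in library 2. Add2 was at 201 and 218 scaled CPM, a log2 ratio of 0.12 (adjusted p = 5.1e-08, same exact binomial test), so Add1 was lower and its partner Add2 higher in library 2. Tmod1 was at 132 and 143 scaled CPM, a log2 ratio of 0.11 (adjusted p = 7.3e-05). Ank1 was at 1059 and 1067 scaled CPM, a log2 ratio of 0.01 that did not pass the test (adjusted p = 0.33; 0.035 with total counts as library sizes).

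In TPM the same libraries look different. Of the 9 genes 7 were higher in library 2 in TPM, and 3 were higher in scaled CPM. The median log2 ratio of the 5256 well-counted genes was 0.11 in TPM and 0.01 in scaled CPM, so TPM places library 2 higher for most genes. For Ank1 and Mpp1 the 2 units lay farthest apart. The TPM of Ank1 was 1.30 times higher in library 2, while its scaled CPM was 1.01 times higher. The effective length that the quantifier gave Ank1 was 5276 bases in library 1 and 4571 in library 2, a ratio of 0.866, and TPM divides the counts by that length. For Mpp1 the TPM was 1.10 times higher in library 2 while the scaled CPM ratio was 0.841, and the effective length was 1226 and 1051 bases, a ratio of 0.857. Effective lengths depend on the shares of a gene's transcripts, which are described next.

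**Figure D3:**
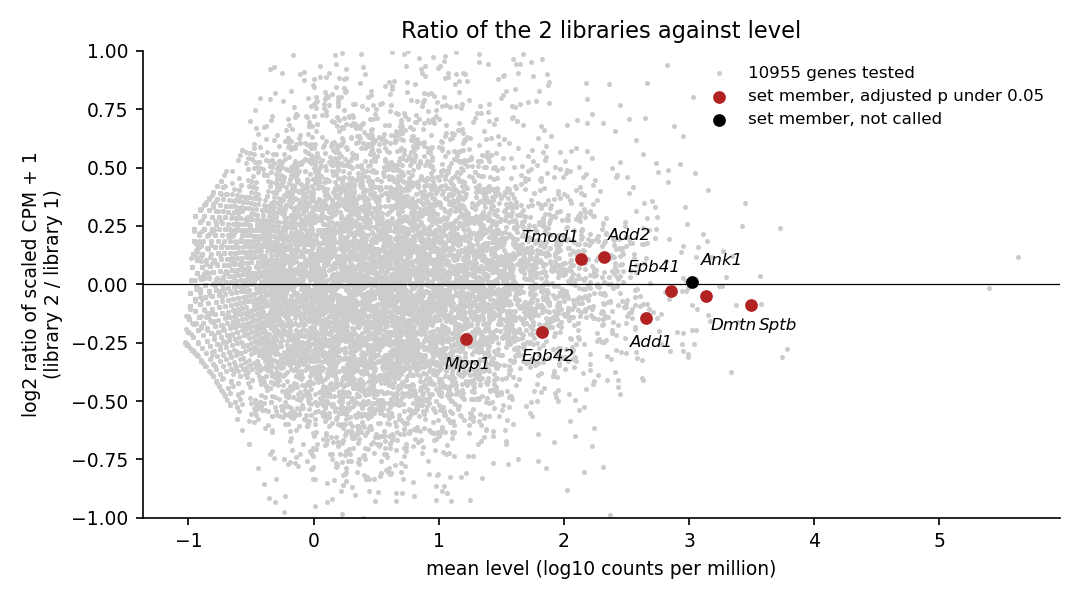
Log2 ratio of scaled CPM + 1, library 2 over library 1, against the mean level of the gene on a log10 axis, for all 10955 tested genes (grey) and the 9 skeleton genes (red where called, black where not). The 9 genes lie between -0.24 and 0.12, and 172 grey genes beyond a ratio of 1 in either direction are outside the plotted range.

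The 77 annotated transcripts gave 51 with a count in at least 1 library. The deposited tables give each transcript's percent of its gene's TPM. A short transcript weighs more in TPM than in counts, so both shares are given. For all 9 genes library 1 and library 2 had the same leading transcript by TPM, and likewise by counts. The 2 measures named the same leader for 8 genes, and Mpp1 was the exception.

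The genes Sptb, Add2 and, by counts, Tmod1 were each carried by 1 transcript. Sptb-202, with 8084 bases and 32 exons, made 98.4% and 96.7% of Sptb TPM. The longer Sptb-201, with 36 exons and another 3′ end, made the remaining 1.60% and 3.28%. The 2 share their first splice donor and differ in the last exons, which change the C-terminal end of the chain. Add2 had 1 annotated transcript, Add2-201. Tmod1-201, the full coding transcript of 3158 bases, held 95.6% and 94.7% of Tmod1 counts. It made only 65.2% and 61.2% of the TPM, since the 396-base non-coding Tmod1-204 was given 33.9% and 36.1% of TPM from 4.19% and 4.81% of counts.

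Ank1 showed the same divergence. Ank1-207, with 8201 bases, 44 exons and 5634 coding bases, held 87.4% and 85.2% of the counts but 57.2% and 48.3% of the TPM. The remainder lay mainly in 2 short models inside the 3′ part of the gene. The coding Ank1-201, with 1030 bases and 4 exons, had 20.9% and 29.0% of TPM from 3.51% and 5.67% of counts. The retained-intron model Ank1-211, with 416 bases, had 15.7% and 17.3% of TPM. Most of the higher Ank1 TPM of library 2 lay in these: Ank1-201 was at 21.8 and 39.5 TPM, Ank1-211 at 16.4 and 23.5 TPM and Ank1-207 at 59.9 and 65.7 TPM. By counts, 92.4% and 91.1% of Ank1 belonged to transcripts that leave the first exon of the Ank1-207 group, whose splice donor is at position 23058670. An upstream first exon with its donor at 23035245 had 3.01% and 1.88%.

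**Figure D4:**
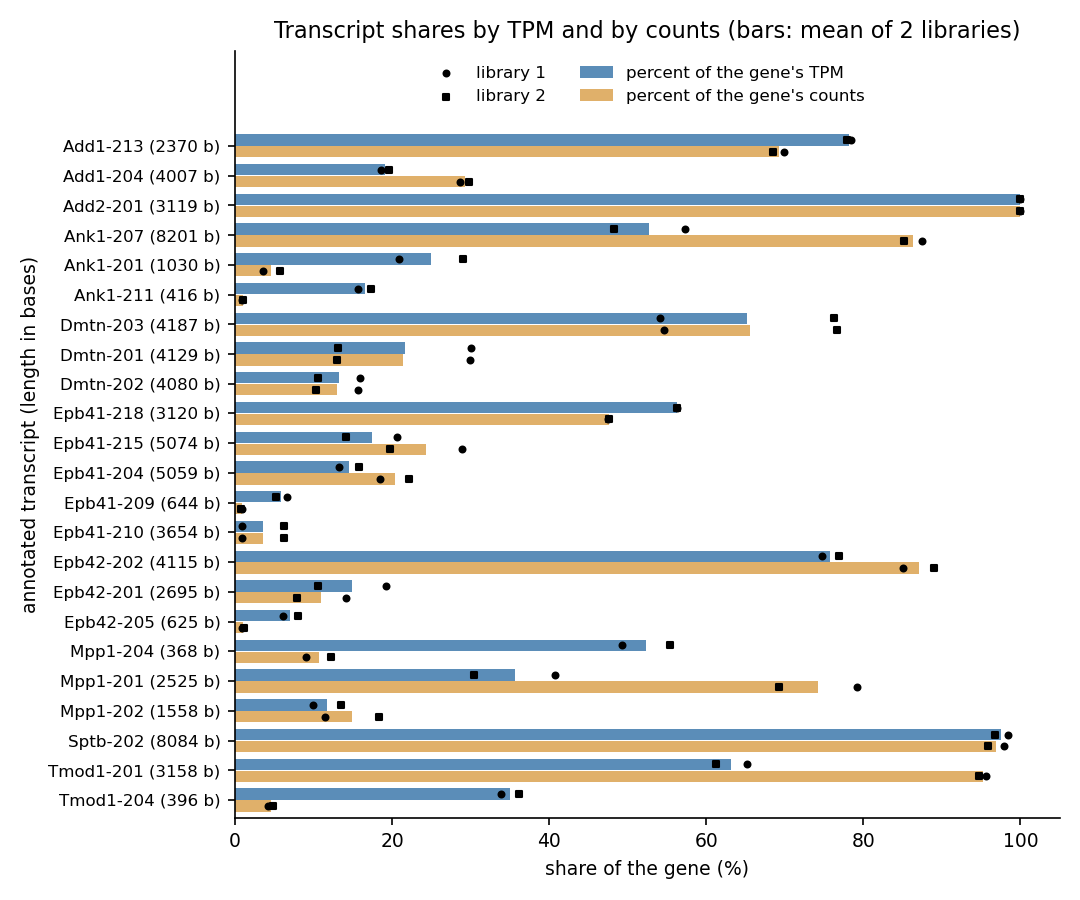
Share of each gene's TPM (blue) and of its counts (tan) held by every annotated transcript with 5% or more of either in at least 1 library, with bars at the mean and points for library 1 (circles) and library 2 (squares). The longest bars of both colours are Add2-201 and Sptb-202, while Mpp1-204 (368 bases) has 49.2% and 55.4% of Mpp1 TPM but 9.07% and 12.2% of its counts.

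Mpp1 was led in TPM by Mpp1-204, a 368-base model annotated as a target of nonsense-mediated decay, with 49.2% and 55.4%. The coding Mpp1-201, with 2525 bases and 12 exons, had 40.8% and 30.5% of TPM but 79.2% and 69.3% of counts. Mpp1-204 rested on 82.7 and 81.7 counts with a posterior SD of 14.6 and 14.4. The bounds that the authors' table gives for the TPM of Mpp1, whose level is not stated, were 6.49 to 9.35 in library 1 and 7.06 to 10.6 in library 2. They overlap, and with their level unstated no order of the libraries in the TPM of p55 is drawn from them.

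Dmtn was split among 3 long coding models of similar length. Dmtn-203 had 54.1% and 76.3% of TPM, Dmtn-201 had 30.0% and 13.1%, and Dmtn-202 had 15.9% and 10.6%. The shares thus lay far apart between the libraries in a gene whose total differed by a log2 ratio of -0.05, and no test of shares was run. The posterior SD of the count of Dmtn-203 was 899 and 916, against 38674 and 45682 counts. The lengths of Dmtn-201 and Dmtn-203 differ between the annotation used by the authors and the one used here for exon structures, so no exon is named for this gene. Epb42 was led by Epb42-202, with 13 exons and 2073 coding bases, at 74.7% and 76.9%. Epb42-201, with 10 exons and 2019 coding bases, had 19.2% and 10.6%.

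Add1 and Epb41 were both led by models whose 5′ end is incomplete in the annotation. Add1-213, with 7 exons, had 78.5% and 77.9% of Add1 TPM, and the complete Add1-204, with 16 exons and 1896 coding bases, had 18.6% and 19.5%. The 2 differ in the use of a 50-base exon (plus strand, chr5:34630235-34630284), contained in Add1-213 and skipped in Add1-204. Its inclusion was 79.4% and 78.7% of the TPM of transcripts that span it, close in the 2 libraries, and 70.1% and 68.7% by counts. Add1-213 is the only model that contains it, so these values rest on the share given to that model. By contrast an 87-base coding exon of Add1 (plus strand, chr5:34620832-34620918) was in 0.304% and 0.456%.

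Epb41 was led by Epb41-218, a 6-exon model of 3120 bases, with 56.3% and 56.2% of TPM. It begins downstream of the 63-base exon, so its share says nothing of that exon. The models that do reach it held 37.0% and 38.4% of Epb41 TPM. They were mainly the coding Epb41-204, at 13.3% and 15.8%, which contains the 63-base exon, and Epb41-215, at 20.7% and 14.1%, which skips it. Epb41-215 spans the gene with 18 exons but is annotated without a coding sequence.

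Inclusion of the 63-base exon was 40.7% in library 1 and 46.0% in library 2, as the share of TPM among transcripts that span it. By counts it was 41.0% and 48.3%, from 7784 counts that contain it and 11200 that skip it in library 1, and 7844 and 8391 in library 2. Among protein-coding models alone it was 92.3% and 72.1%, because most skipping was assigned to the non-coding Epb41-215. In library 2 Epb41-210, a coding model that also skips the exon, was at 6.24% of TPM, against 0.83% in library 1. The call that this exon is mixed therefore depends on whether Epb41-215 is counted, and even the order of the libraries turns with it.

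The neighbouring 57-base exon was at 4.78% in both libraries by TPM, and at 10.5% and 5.67% among protein-coding models. The 42-base exon between the 2 was at 0.177% and 1.26%. Further 3′, the 102-base exon was included in 85.8% and 83.3%, and here Epb41-204 was the model that skips it. This value rests largely on Epb41-218, which contains the exon. That model held 17551 of the 29771 containing counts in library 1 and 15020 of 24331 in library 2. The 2 full-length models thus carried opposite choices: Epb41-204 holds the 63-base exon and lacks the 102-base exon, and Epb41-215 the reverse. A 75-base coding exon near the 5′ end (minus strand, chr4:132006049-132006123) was included in 35.1% and 46.5% by TPM, and in 97.1% and 97.6% among protein-coding models. It also lies in Epb41-204 and not in Epb41-215. The inclusion values of these exons are therefore not independent of each other. The 24-base exon of Ank1 was almost always included, at 95.9% and 97.3%.

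**Figure D5:**
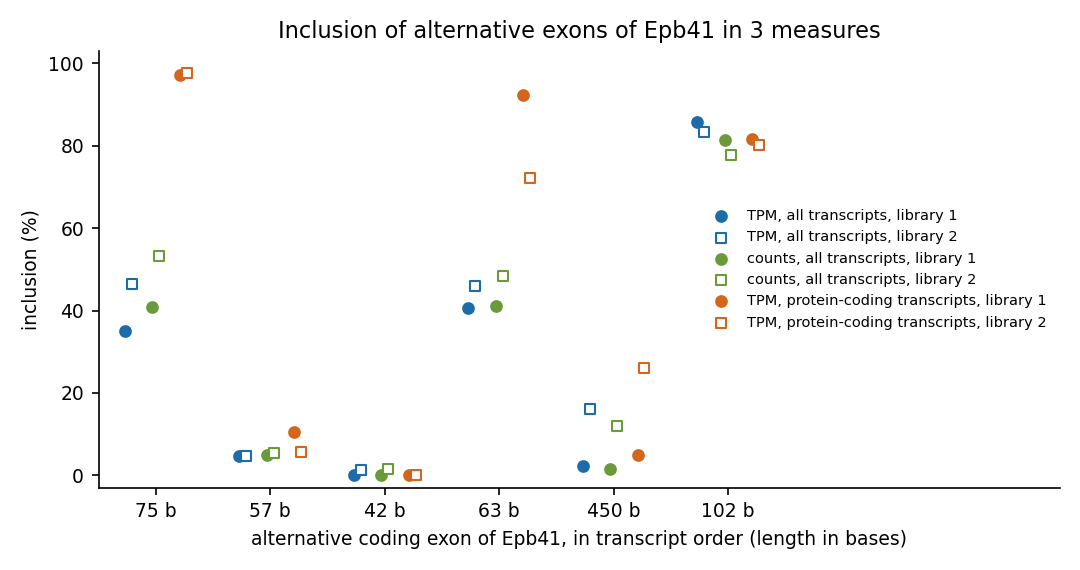
Inclusion in percent of 6 alternative coding exons of Epb41 in transcript order, by TPM of all transcripts (blue), counts of all transcripts (green) and TPM of protein-coding transcripts (orange), with filled circles for library 1 and open squares for library 2. The 63-base exon lies at 40.7% and 46.0% by TPM but at 92.3% and 72.1% among protein-coding transcripts, while the 102-base exon stays between 77.7% and 85.8% in all 3 measures.

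Of 39 alternative exons of 6 of the genes, 8 had an inclusion between 5% and 95% in both libraries. Apart from the 63-base, 75-base and 102-base exons of Epb41 and the 50-base exon of Add1, they were a 59-base exon of Epb41, a 34-base exon of Add1, an 88-base exon of Mpp1 and a 125-base exon of Ank1. Exons of the short models of Ank1, Mpp1 and Epb41 are among these, and their TPM shares carry the same weighting by length. The 59-base exon lies only in the 644-base Epb41-209 and was at 1.83% and 1.69% by counts. The 34-base exon of Add1 is a shorter form of a 37-base exon that was at 98.5% and 98.8%. Models that span the 34-base form held only 1.83% and 1.61% of Add1 TPM. Sptb had no alternative internal exon among the models whose lengths matched. Add2 has 1 annotated transcript and Dmtn only 1 model of matching length, so neither gene could show such an exon here.

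Promoter windows of 300 bases from RefSeq, from 250 before to 50 after the start (GRCm38.p6), were on hand for 7 of the 9 genes, with 9 windows in all. Letters of motifs that erythroid regulators are known to bind were counted in them on both strands, as a description of sequence. AGATAA, the core read by GATA1, was in 2 of the 9 windows, those of Epb42 and Mpp1, against 11.2% of all 32851 windows. TGATAA, the other form of that core, was in none of them, against 9.05% of all. CCNCNCCC, a form of the CACC box read by KLF1, was in 6 of the 9, against 49.5% of all. CANNTG, the E box read by TAL1 with its partners, was in 7 of the 9, against 72.3% of all. The 2 genes with AGATAA were the lowest of the set in TPM. No window was on hand for Ank1 or Dmtn, and a link between motif and level was not tested. Of the 7 genes, Mpp1 alone had a leading transcript by counts that starts at the RefSeq start. For the others the window may not be the promoter in use, and the leading models of Add1 and Epb41 have no complete 5′ end.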

How the data were processed

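The authors deposited gene and transcript tables for each library, made on mm10 with GENCODE M4 per the listing deposited beside them. No source used here names the aligner, the quantifier or a version. The deposited expected counts are not normalized. The deposited TPM and FPKM values are corrected for length by the authors, and the deposited percent is each transcript's share of its gene's TPM. Both libraries were taken as replicates of 1 group, from the labels.

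Symbols, positions and exon structures came from GENCODE M21 of the same assembly. Transcripts were matched by identifier without version, and 75 of the 77 had equal lengths. Inclusion of an exon is the summed TPM of transcripts containing it over that of all transcripts spanning it. A transcript is named if it had 5% or more of its gene's TPM or counts. Of each other list the 3 highest and the 1 lowest genes were to be named. Relatives and markers beyond that were chosen after their values were seen.

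Counts were rounded and scaled with edgeR 4.0.16 (R 4.3.3), with factors 0.996 and 1.00. Genes whose counts summed to at least 10 over the 2 libraries entered the exact conditional binomial test, and ratios used log2(CPM + 1). At an unadjusted p under 0.05, 5598 genes passed. With 1 group, edgeR's quasi-likelihood test has no comparison to make. The procedure was tested on simulated counts that held counting error only. That run therefore says nothing of how the test behaves under further spread between libraries. DESeq2 1.42.0 size factors were an alternative. Python 3.11.15 with scipy 1.17.1 did the rest. A count of 0 was read as at most 3 counts, 0.0586 and 0.0678 CPM. The genes, lists and tests were chosen with earlier results of these data known. From the lists, 1 gene is not reported here.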

Additional observations from a re-analysis of the deposited data

How the results depend on the processing

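The summed share of the 9 genes was 0.0828% of all TPM on average. It was 0.713% of expected counts and 0.561% of the TPM outside the globin genes, and from 0.0787% to 0.0870% with each library alone. The Add1 to Add2 ratio was 2.59, and 1.50 by counts per kilobase of the longest annotated transcript. The Sptb to Ank1 ratio was 1.80, and 2.34 by that measure. Single libraries gave 2.34 to 2.84 for Add1 to Add2 and 1.60 to 1.99 for Sptb to Ank1. Order by that measure placed Dmtn before Sptb. The number of genes called stayed at 8 of 9 under DESeq2 size factors, total counts, the counts outside the globins and minima of 1 and 100 counts. Of all genes tested, those minima gave 29.5% and 55.9% called, and total counts gave 3 of the 9 higher and 5 lower in library 2. Leaving out a library leaves no such comparison.

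In place of scaled counts, TPM turned the sign of the log2 ratio of 4 called genes. The log2 ratios became 0.065 for Sptb, 0.14 for Epb41, 0.10 for Dmtn and 0.12 for Mpp1. The median of the 5256 well-counted genes was itself 0.11 in TPM, above Sptb and Dmtn, and the TPM bounds of Mpp1 overlapped between the libraries. The mean inclusion of the 63-base exon of Epb41 was 43.3%, from 40.7% to 46.0% in single libraries, and 82.2% among protein-coding transcripts. Among protein-coding transcripts the 75-base exon was at 97.4% in place of 40.8%, and the 57-base exon at 8.08% in place of 4.78%. Mpp1 had the fewest counts of the 9, and no test of transcript shares or of levels between genes was run.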
